A study of Rattus norvegicus with 98 samples.

Results

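Fluoxetine was compared with vehicle in the lateral septum (LS) by H3K27ac ChIP-seq in 4 libraries, chosen by their region label from the 94 libraries of the series that have peak lists. In the FT group, male Long-Evans rats labelled 2 months old had received fluoxetine at 18 mg/kg body weight in drinking water for 6 weeks, and in the Sham group, which the labels call untreated, rats had received water alone. Each group had 2 replicates, and each replicate pooled frozen punches of the region across several rats, so that the spread between replicates is one between pools. The peak lists were called against the rat build Rn5, 1 list for each library, and hold the position of each peak, its height (maxScore), its −log10 p and a normalised tag count. No annotation of that build was used here, so loci are given by position without gene names, and the region label could not be set against marker genes.

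Acetylation of lysine 27 on histone H3 marks active promoters and enhancers, where it neutralises a charged residue of the histone tail and is read by bromodomain proteins of the transcription machinery. The lateral septum is a forebrain structure made mostly of GABAergic projection neurons, which receives hippocampal input and projects to the hypothalamus. It is known for its part in fear, social behaviour and the response to stress, and is innervated by serotonergic fibres of the raphe. Fluoxetine blocks the serotonin transporter and so raises serotonin outside the cell. A punch holds neurons and glia together, so a peak found in 1 group may come from more acetylation per cell or from more cells of a type, and these cannot be told apart.

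One library stood apart before any comparison of treatment. Sham replicate 1 held 43341 peaks, Sham replicate 2 held 26223, FT replicate 1 held 46319 and FT replicate 2 held 46482. Both FT lists were thus longer than both Sham lists, but Sham replicate 1 was much nearer to the FT libraries than to its own replicate. The median −log10 p of a peak was 12.25 in the first Sham replicate and 8.32 in the second, against 13.47 and 12.74 in the FT replicates. At the ceiling of 200 that the lists give to −log10 p there were 1790, 98, 1864 and 1999 peaks in the same order. The number of reads behind each list was not given in the files used here, so its part in these differences was not tested. Because of this library, list lengths, widths and window counts were compared on the full lists, on lists cut by maxScore to the 26223 highest peaks of each library (the peak number excepted, which the cut makes equal), and without Sham replicate 2. The positions of windows, the ranks among regions and the occupancy of LS windows in other regions were not recomputed without that library.

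The 4 lists were set on a common grid of 1 kb windows, a window counting as occupied where peaks covered at least 50% of it. The share of windows that a pair of libraries had in common, of those that either held (the Jaccard index), was 0.779 between the FT replicates on the cut lists and 0.556 between the Sham replicates. Sham replicate 1 had an index of 0.756 with FT replicate 1 and 0.738 with FT replicate 2, while Sham replicate 2 had 0.534 and 0.533. The order was the same on the full lists, with 0.729 between the FT replicates and 0.468 between the Sham replicates. When all libraries of the series were cut to its shortest list of 19378 peaks, the nearest of the 93 other libraries to Sham replicate 1 was FT replicate 1 of LS, and the FT replicates were nearest to each other (index 0.791). The nearest to Sham replicate 2 was Sham replicate 1 of the medial septum (MS), with an index of 0.623. Of the 24 other regions MS was the most like LS, with a mean index of 0.657 over 16 pairs of libraries, followed by the lateral hypothalamus (LH) with 0.619. By mean index the septal label thus went with a septal neighbour, but the 4 LS libraries did not all lie together. Of the 93 other libraries, the farthest of LS ranked 41st from Sham replicate 1. It ranked 49th from FT replicate 1 and 44th from FT replicate 2.

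In peak number the FT group averaged 46400.5 ± 115 (SD, n = 2) and the Sham group 34782 ± 12104 (SD, n = 2), a ratio of 1.33-fold or 0.42 on the log2 scale. The exact two-sided permutation test gave p = 0.333 with n = 2 in each group, which is the smallest value that 2 libraries against 2 can give. Without Sham replicate 2 the log2 ratio was 0.10. The peaks covered 67.6 Mb (replicate 1) and 37.3 Mb (replicate 2) in Sham, and 76.1 Mb and 75.8 Mb in FT. The log2 ratio of the group means was 0.53 on the full lists, 0.28 on the cut lists and 0.17 on the full lists without Sham replicate 2. The groups did not overlap in either measure, but the distance between the Sham replicates was larger than that between the group means.

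**Figure D1:**
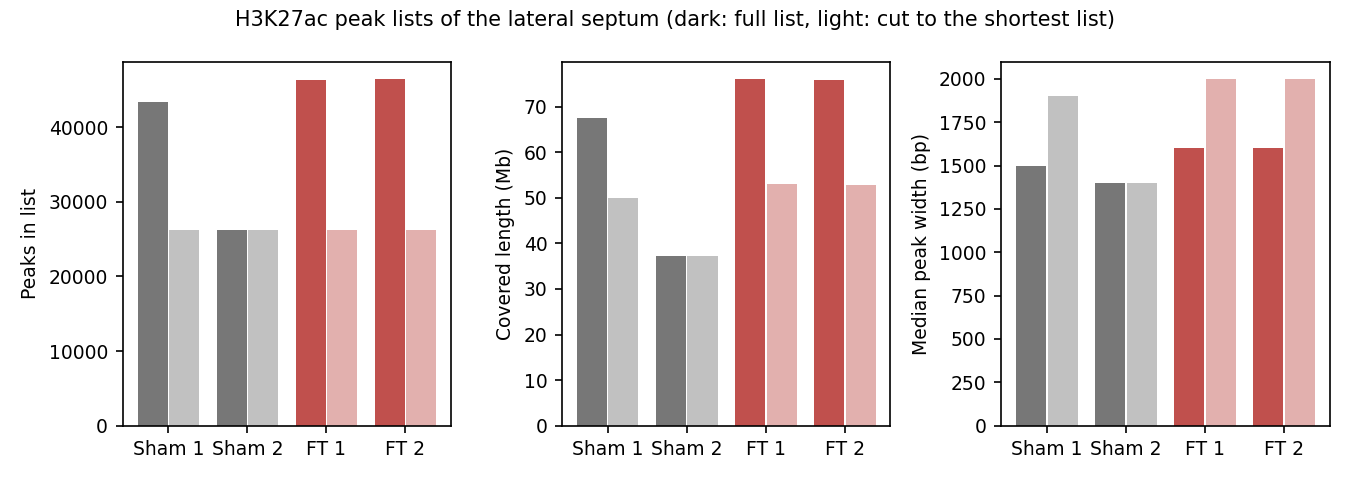
Number of peaks, covered length in Mb and median peak width in bp (y axes) of the 4 lateral septum libraries (x axis), with Sham in grey and FT in red, the full list dark and the list cut to the shortest light. Sham replicate 1 lies next to both FT libraries in each panel, and Sham replicate 2, with 26223 peaks and 37.3 Mb, lies below all 3.

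Median peak width was also larger in FT, with all widths given in steps of 100 bp. The median width over each full list was 1500 bp in Sham replicate 1, 1400 bp in Sham replicate 2 and 1600 bp in both FT libraries, and on the cut lists it was 1900, 1400, 2000 and 2000 bp. To compare the same sites, overlapping peaks of the 4 lists were joined into 58028 elements, of which 22644 had a peak in every library. At these shared elements the median width was 1900 bp in Sham replicate 1, 1500 bp in Sham replicate 2 and 2000 bp in each FT library. The median element was 0.23 wider in FT on the log2 scale, and 95.7% of the shared elements had a larger mean in FT (exact permutation p = 0.333, n = 2 in each group, the smallest possible). Between single libraries, however, the median log2 difference was 0.07 from Sham replicate 1 to FT replicate 1, 0.06 from Sham replicate 1 to FT replicate 2, and 0.39 from Sham replicate 2 to FT replicate 1. From Sham replicate 1 to Sham replicate 2 it was −0.31, larger in size than the difference between the groups. FT replicate 1 was wider than Sham replicate 1 at 62.7% of the shared elements and equal at 22.1%. Both FT libraries were wider than both Sham libraries at 10342 shared elements (45.7%) and narrower than both at 91 (0.402%). The replicate 1 libraries were wider than both replicate 2 libraries at 2948, which is 13.0%.

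Which windows separated the treatments was asked by counting those occupied in both libraries of 1 group and in neither of the other, beside the same count for the 2 other ways of pairing the 4 libraries. On the full lists 8029 of the 95568 occupied windows were held by both FT libraries alone (8.4%) and 345 by both Sham libraries alone (0.361%). Pairing by replicate number gave 4004 windows, namely 3663 for both replicates 1 and 341 for both replicates 2. The crossed pairing gave 2826 windows, with 2513 for Sham replicate 1 with FT replicate 2 and 313 for Sham replicate 2 with FT replicate 1. In each arrangement the pair without Sham replicate 2 held nearly all of the windows. The 8374 windows that separated treatment were 2.45 times the mean of the other pairings, 1.29 on the log2 scale. Over 3 libraries the excess was 0.27 without Sham replicate 2 and turned to −0.12 without FT replicate 1 and −0.21 without FT replicate 2.

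On the cut lists, where each library had the same number of peaks, the surplus was smaller and still fell to FT. Both FT libraries alone held 3846 of 67336 occupied windows (5.71%), and both Sham libraries alone held 573 (0.851%). The replicate pairing gave 2551 windows and the crossed pairing 1989, so that the treatment count of 4419 was 1.95 times their mean, 0.96 on the log2 scale. It was 0.34 without Sham replicate 2, and it turned to −0.46 without FT replicate 1 and −0.56 without FT replicate 2. In 29410 windows all 4 libraries had a peak. Absence from a single library was far more frequent in Sham replicate 2, which alone lacked 12217 windows, than in Sham replicate 1 (932), FT replicate 1 (531) or FT replicate 2 (681). With 3 pairings of 4 libraries no p below 0.333 can be had.

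**Figure D2:**
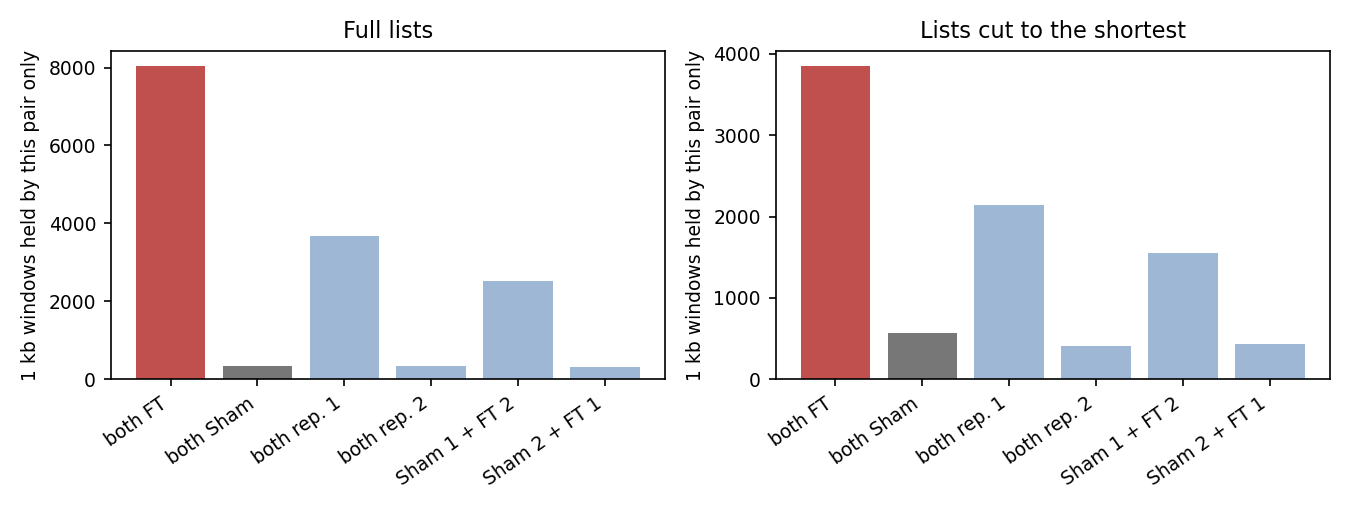
Number of 1 kb windows (y axes) that were occupied in both libraries of a pair and in neither of the other 2 (x axis), on full lists (left) and on lists cut to the shortest (right), with the FT pair in red, the Sham pair in grey and pairs that mix treatments in blue. The FT pair holds the most windows in both panels, 8029 and 3846, and each of the pairs that contain Sham replicate 2 holds at most 573.

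Without Sham replicate 2 the count is of another form, since the Sham side then needs 1 library and the FT side still needs both. On the cut lists 4778 windows were held by both FT libraries and not by Sham replicate 1, against 3559 held by Sham replicate 1 and neither FT library, so that 57.3% lay on the FT side, beside 87.0% with all 4 libraries. Of the 3559 windows 2986 were held by Sham replicate 1 alone, so part of the distance between these shares follows from how they are counted. On the full lists the values were 8896 and 5438 windows, or 62.1% on the FT side. Against Sham replicate 2 alone, 16063 windows of the cut lists were held by both FT libraries, and Sham replicate 1 also held 12217 of these. The FT share depended on how lists were matched, too. It was 62.8% where the lists were cut to an equal covered length of 37.3 Mb, and 61.9% where only windows with a peak centre were counted on the cut lists, a count that peak width does not enter.

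The FT-only windows of the cut lists lay in weaker and narrower peaks than windows of all 4 libraries. The mean percentile rank of the tag count among the peaks of the library had a median of 56.1 in FT-only windows, 39.3 in Sham-only windows and 77.7 in windows of all 4, and the median peak width was 1900, 1300 and 2050 bp. The 3846 FT-only windows formed 3250 separate loci, of which 82.0% were a single window and none was longer than 3 windows. The 573 Sham-only windows formed 540 loci of at most 2 windows. Of the FT-only windows 59.2% adjoined a window that a Sham library occupied, and of the Sham-only windows 14.5% adjoined one that an FT library occupied. Without Sham replicate 2 the shares were 49.6% and 29.7%. At least 1 base of a Sham peak in the full lists lay within 96.1% of the FT-only windows, and at least 1 base of an FT peak within 97.9% of the Sham-only windows.

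Many of these windows were absent from a cut list, not from the library. Sham replicate 1 held 1244 of the 3846 FT-only windows in its full list, whereas Sham replicate 2, the list that set the length and so was not shortened, held 0. Of the 573 Sham-only windows, FT replicate 1 held 438 and FT replicate 2 held 407 in their full lists. On the full lists, 67.7% of the FT-only windows and 17.6% of the Sham-only windows still separated the treatments.

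FT-only windows were found on all 20 autosomes and X. They made up between 4.87% of the occupied windows of chromosome 15 and 6.86% of those of chromosome 13, with 5.40% on X, beside 5.71% overall. On the cut lists the 1 Mb stretch with the most FT-only windows was chr10:85000001-86000000, with 14 FT-only, 2 Sham-only and 53 windows of all 4 libraries. Other stretches led on the full lists, chr10:15000001-16000000, chr6:133000001-134000000 and chr8:116000001-117000000, with 19 FT-only windows each. The most Sham-only windows in such a stretch of the cut lists were 5, in chr1:208000001-209000000 and chr2:243000001-244000000. The distance to the nearest window of all 4 libraries had a median of 8 kb for FT-only and 20 kb for Sham-only windows.

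The longest FT-only loci on the cut lists had 3 windows, unlike the single windows that made up most loci. At chr6:33211001-33214000 all 3 windows were occupied in both FT libraries, by peaks of 2600 bp with a −log10 p of 17.5 in replicate 1 and of 2800 bp with 25.3 in replicate 2. Sham replicate 1 had a peak of 2500 bp there in its full list with a −log10 p of only 5.22, which the cut removed, and Sham replicate 2 had none. At chr8:107067001-107070000 the −log10 p was 20.5 and 16.6 in the FT libraries and 7.64 in Sham replicate 1, with no peak in Sham replicate 2. At chr9:44016001-44019000 it was 20.7 and 28.6 in FT and 7.10 in Sham replicate 1, whose peak of 3800 bp was wider than those of 3100 and 3000 bp in FT. Sham replicate 1 held at least 1 window of each of the 10 longest FT-only loci in its full list. That Sham replicate 2 held none follows from the choice of the loci, since its list was not shortened by the cut. The 10 loci need not be typical of the set. Counted by single window, 2602 of the 3846 FT-only windows were occupied in neither full Sham list. At least 1 base of a Sham peak still lay within 96.1% of the 3846. These 10 loci were active at least in part in 8 to 23 other regions, but all 3 windows were active in only 0 to 12. The locus in the fewest, chr19:69678001-69681000, was active at least in part in 8 regions, and with all 3 windows in 2. Among the 8 were both parts of the nucleus accumbens, MS and the bed nucleus of the stria terminalis (BNST).

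Of the 540 Sham-only loci 507 were single windows and all others had 2 windows. The 10 named were taken among those of 2 windows by the highest mean tag percentile rank, so they need not be typical. Most of these 10 had an FT peak in the full lists, below the lowest −log10 p of 10.82 and 10.32 that the cut left in the FT libraries. At chr5:140774001-140776000 the −log10 p was 10.3 in Sham replicate 1 and 4.49 in Sham replicate 2, and a peak with 6.42 in the full list of FT replicate 1 covered 1 of its 2 windows. At chr11:72175001-72177000 it was 10.5 and 16.1 in Sham, and 8.12 and 5.93 in FT. Of the 10 named Sham-only loci only chr2:243426001-243428000 had no window held in either full FT list. Its peaks were 1200 bp with a −log10 p of 14.8 in Sham replicate 1 and 1100 bp with 7.53 in Sham replicate 2.

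Almost all windows that separated the treatments in LS were active elsewhere in the brain, where active means occupied in at least 2 libraries of a region. This held for 4345 of 4419 windows of the cut lists (98.3%), with 98.3% of FT-only and 98.6% of Sham-only windows, and for 99.98% of the windows of all 4 libraries. The number of other regions was lower, with a median of 14 of 24 for FT-only and 14 for Sham-only windows, beside 23 for windows of all 4. At least 12 other regions were active in 58.8% of FT-only, 65.4% of Sham-only and 97.6% of the windows of all 4. Where both Sham libraries of the other region had to hold the window, the share of treatment-separating windows active elsewhere was 87.2%. It was then 86.6% of FT-only and 91.6% of Sham-only windows. Where the lists of the other regions were cut to the shortest of the series the share was 86.9%, with 88.7% of FT-only and 74.7% of Sham-only windows. Without Sham replicate 2, and with the first definition of active, the pooled share was 97.2%.

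The regions in which FT-only windows were most often active were MS (73.3%), LH (72.3%), the basolateral amygdala (BLA, 69.4%) and BNST (68.7%) on the cut lists. The order on the full lists was LH (57.7%), BLA (56.9%) and MS (52.7%). These shares count Sham and FT libraries of a region alike. The fewest were active in the habenula (HB) at 0.078%, where windows of all 4 libraries also reached only 0.316% and 1 library shared almost no windows with LS (lowest index 0.001). Next came the medial preoptic area (MPOA) with 32.5%, which has 3 libraries. Sham-only windows were most often active in LH, at 80.5%.

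**Figure D3:**
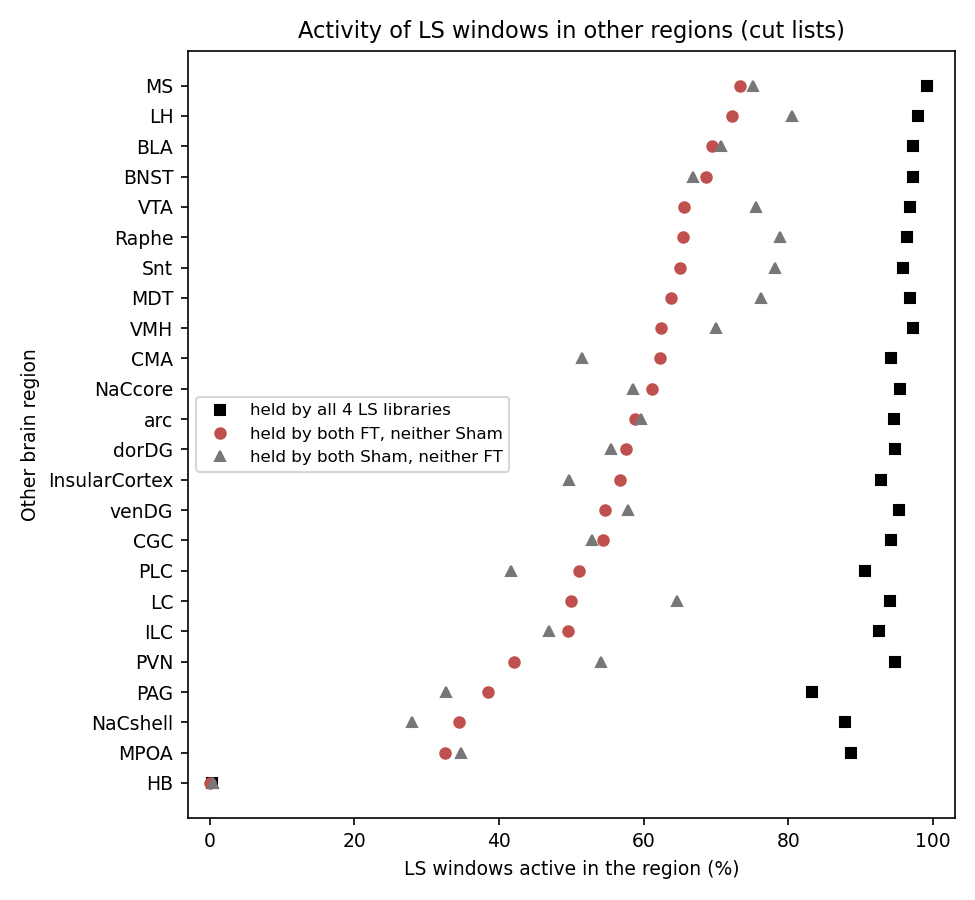
Percent of lateral septum windows of the cut lists (x axis) that were active in each of the 24 other regions (y axis), for windows held by all 4 LS libraries (black squares), by both FT libraries alone (red circles) and by both Sham libraries alone (grey triangles). Windows of all 4 libraries lie to the right in every region except HB, and on these lists FT-only windows reach their highest share, 73.3%, in MS.

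The libraries of the other regions had no part in choosing these windows. Their occupancy was read in each FT and Sham library, on lists cut to the shortest of that region. By the study's methods all regions were punched from a common set of rats, pooled and processed by replicate, so the regions are not independent of LS or of each other. The 3846 FT-only windows of LS were occupied at 15.4% in Sham replicate 1 and 16.5% in Sham replicate 2 of MS, and at 70.9% and 64.6% in FT replicates 1 and 2. The group means differed by 51.8 percentage points without overlap, and 1380 of the windows (35.9%) were FT-only in MS as well, which is 13.1% of the 10523 FT-only windows of that region on lists cut to its own shortest. Of the LS windows of all 4 libraries 4.90% were FT-only in MS, and of the Sham-only windows 8.03%. In BNST the occupancy was 40.7% and 24.6% in Sham and 61.3% and 56.2% in FT, and 533 windows (13.9%) were FT-only there, beside 2.22% of the windows of all 4 libraries and 2.97% of the Sham-only windows. In the core of the nucleus accumbens (NaCcore) it was 21.9% and 37.3% in Sham and 55.2% and 54.4% in FT, with 519 windows (13.5%) FT-only, beside 3.24% and 3.14%. The windows of all 4 LS libraries are no matched null. They were already occupied at 79.1% to 90.9% in the Sham libraries of these regions, so few could be FT-only there. The Sham-only windows were at 24.4% to 40.8% in the same libraries. Windows of the replicate and crossed pairs of LS were not looked up in other regions. The exact permutation p was not computed for each region, since 2 libraries against 2 cannot go below 0.333.

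Over the 20 other regions with 4 libraries the FT mean was above the Sham mean in 19 and both FT libraries were above both Sham libraries in 13, with a median difference of 15.0 percentage points, a tally over regions that share rats. The exception was the ventral dentate gyrus (venDG) at −3.97. The same direction was seen for LS windows of all 4 libraries in 17 of the 20 regions, with a median of 3.80 points, and in MS these were at 89.9% and 83.1% in Sham against 98.2% and 97.6% in FT. Within each region the lists had been cut to an equal number of peaks. Full Sham and FT lists of many regions differ in length like those of LS. Peaks kept by the cut can still differ in width and strength, and the part of these in the differences was not tested. For the 573 Sham-only windows the median difference was 0 points, and 10 of the 20 regions had a higher FT mean. The largest difference toward Sham was in the dorsal dentate gyrus (dorDG), with 57.1% and 47.8% in Sham and 37.2% and 38.9% in FT, where 44 of the windows (7.68%) were Sham-only, beside 1.23% of the windows of all 4 libraries and 1.77% of the FT-only windows. The windows of all 4 were at 91.2% and 91.5% in the FT libraries of dorDG, so few could be Sham-only there.

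**Figure D4:**
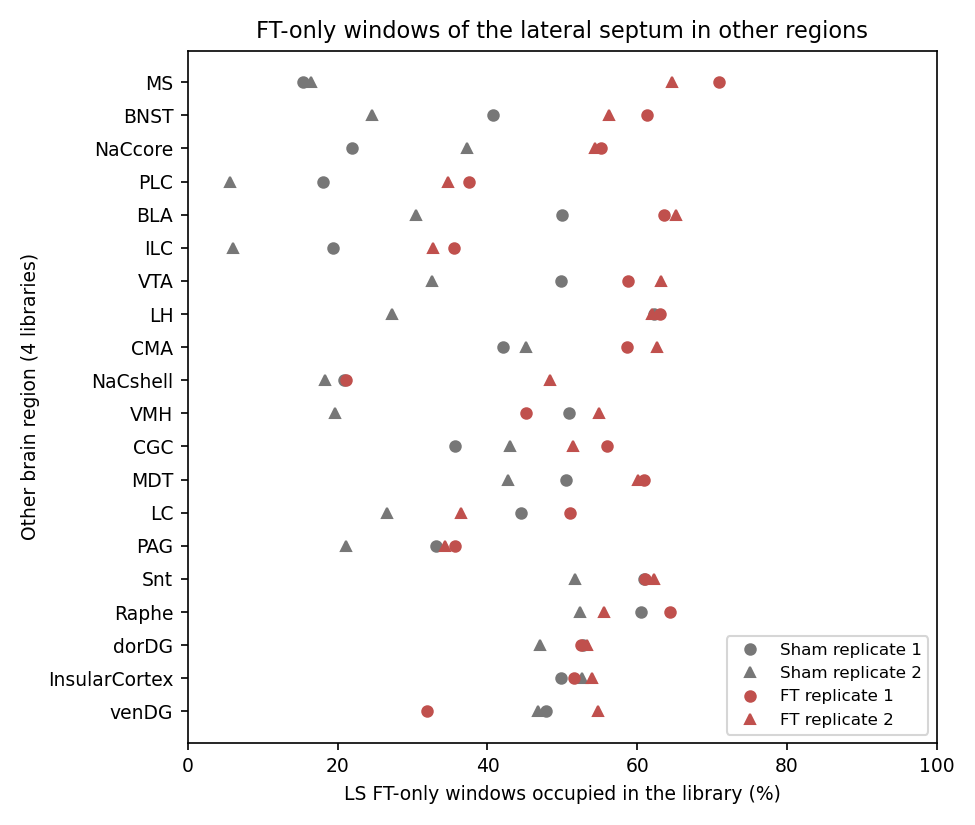
Percent of the 3846 FT-only windows of the lateral septum (x axis) that were occupied in each single library of the 20 other regions with 4 libraries (y axis), Sham in grey and FT in red, replicate 1 as circles and replicate 2 as triangles. Lists were cut to the shortest of each region. The widest gap is in MS, with Sham at 15.4% and 16.5% and FT at 70.9% and 64.6%, and venDG is the region with a lower FT mean.

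Set beside the other regions, LS was intermediate. Among the 21 regions with 4 libraries it ranked 7th from the highest in the FT to Sham ratio of peak number, 11th in the log2 excess of treatment-separating windows on full lists and 13th on cut lists. In MS, where the Sham lists were alike at 27508 and 27292 peaks, 10523 windows were FT-only and 815 Sham-only on lists cut to the region's shortest, an excess over the other pairings of 3.13 on the log2 scale. The excess was 2.09 in NaCcore (7903 and 585 windows) and 1.47 in BNST (5254 and 683), beside 0.96 in LS. The differences between regions were not tested.

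At shared elements the rank of the tag count gave no stable direction. On the full lists the percentile rank of both FT libraries was above that of both Sham libraries at 8934 of 22644 elements (39.5%) and below at 602 (2.66%). A rank within a longer list also counts its added weaker peaks, and the full FT lists were the longer ones. The part of list length in this order was not tested. On the cut lists the order turned, with 3632 of 19024 elements above (19.1%) and 4702 below (24.7%). Replicates 1 were above replicates 2 at 25.7% of elements on the full lists, by the same count. The tag counts are whole numbers of at most 43 and take between 18 and 40 different values per library at shared elements, so that many ranks are tied.

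For the same reason a test of the tag count could not be used. The limma fit of quantile-normalised log2 tag counts called 1444 of 22644 shared elements at an adjusted p under 0.05, but in 1431 of them (99.1%) the 2 values of each group were exactly equal, which leaves no spread to test against. A fit of maxScore, which has decimals, was added after this was seen. It called 0 of 22644 elements, or 0%, with limma at an adjusted p under 0.05, the lowest adjusted p being 0.776. At an unadjusted limma p under 0.05 there were 1376 of the 22644 elements, of which 753 had larger values in FT and 623 in Sham. A share of 0.05 would be expected there if no element differed, so this count and its split are not read as a result. With the replicate number as a block, which the parallel processing of same-numbered samples calls for, 36 elements were called, 23 higher in FT and 13 in Sham. That fit had 1 residual degree of freedom and drew its variance from all elements together, not from each element. Fits with 1 library left out test other sets of elements and assume that the lone library of a group varies like the other pair. Their counts are therefore not set beside these. The number of elements called thus depended on the model fitted.

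The elements with the lowest p in the maxScore fit did not pass the adjusted test and are described as values, chosen after these were seen. At chr10:85147122-85149221 maxScore was 300.07 and 162 in Sham and 185 and 183 in FT as deposited. After quantile normalisation the log2 values were 8.12 and 8.22 in Sham and 6.94 and 7.31 in FT, a difference of −1.04 ± 0.18 (SE, n = 2 in each group). Its peaks were 2000 and 2100 bp wide in Sham and 1200 bp in both FT libraries, against the general direction of width. Its tag count ran the other way in raw values, with 26 and 14 in Sham and 35 and 30 in FT, with percentile ranks of 99.93 to 99.98 within their libraries. At chr6:51764069-51765968 the normalised log2 maxScore was 7.16 and 7.38 in Sham and 6.01 and 6.09 in FT, a difference of −1.22 ± 0.24 (SE). A peak was found there in 42 of the 90 libraries of other regions.

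Of the elements higher in FT, chr4:188209152-188212151 had normalised log2 maxScore values of 7.35 and 7.25 in Sham and 8.06 and 8.16 in FT, a difference of 0.81 ± 0.16 (SE). The tag count was 9 and 5 in Sham and 16 and 12 in FT, and 89 of the 90 libraries of other regions had a peak there. At chr1:183586689-183588988 the log2 values were 6.61 and 6.09 in Sham and 7.50 and 7.33 in FT, and the peak of Sham replicate 2 was only 700 bp wide beside 2000 to 2300 bp in the other 3 libraries. In all 10 elements the groups did not overlap after normalisation, which the choice by p favours. The 5 higher in FT had a peak in 22 or 23 other regions and the 5 higher in Sham in 13 to 23.

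**Figure D5:**
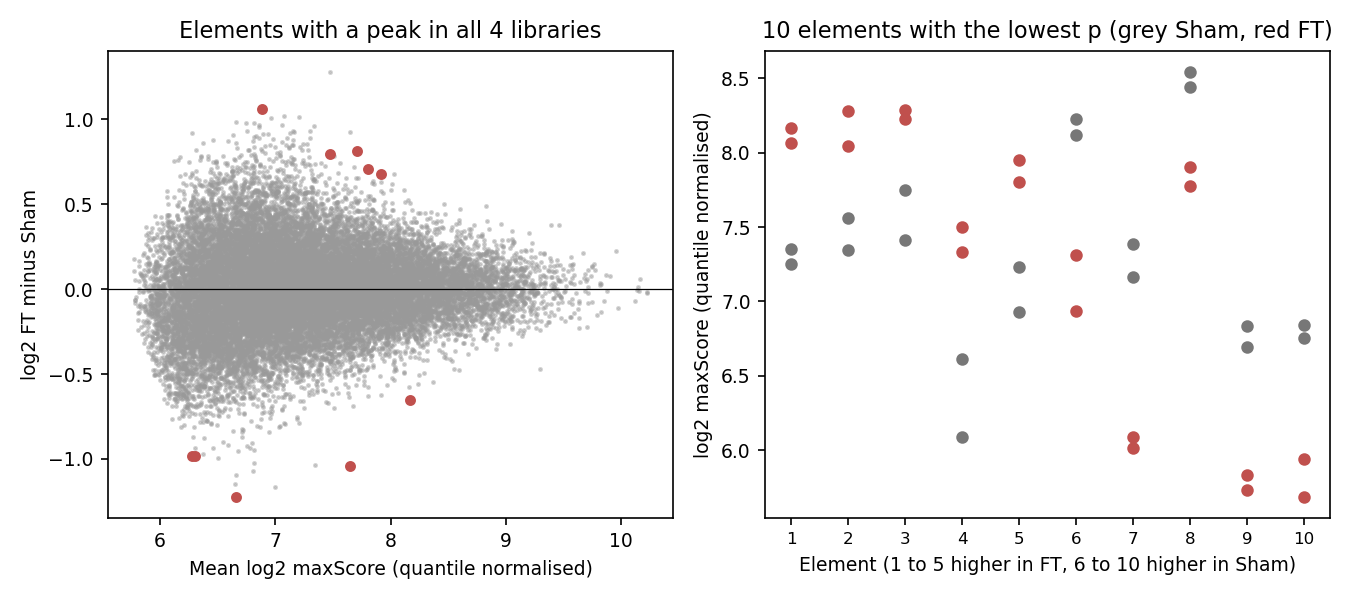
Left, difference of FT and Sham in quantile-normalised log2 maxScore (y axis) against its mean over the 4 libraries (x axis) for the 22644 elements with a peak in every library, with 10 elements of lowest p in red; right, the value of each library at these elements, Sham in grey and FT in red. The groups are apart at each of the 10, and none passed an adjusted p under 0.05.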

How the data were processed

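H3K27ac ChIP-seq was made from 2 Sham and 2 FT pools of lateral septum, with 1 peak list per library. The authors called peaks with DFilter (version and parameters not given in the sources used here) on reads aligned to Rn5, and the submitters' processing notes name BWA. In each deposited file, maxScore is a score of peak height, the −log10 p as deposited ends at 200, Norm-tag-count is a normalised score that the authors rounded to whole numbers, and the deposited FDR in percent is 0 throughout. Read depth was not given.

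Lists were compared on 1 kb windows occupied at 50% or more, and on elements made by joining overlapping peaks, both in full and cut by maxScore to 26223 peaks. Group values were compared by exact two-sided permutation tests. The planned limma (3.58.1, R 4.3.3) fit of log2(tag count + 1) after quantile normalisation was made void by ties, and a fit of log2 maxScore was added after seeing the data. Adjusted p-values are Benjamini-Hochberg values over all shared elements. Named loci are the 10 longest joined windows per direction on the cut lists, with ties ordered by tag percentile and position. Named elements were to be the 5 of lowest p per direction in the tag fit, which ties made impossible, so those of the maxScore fit were taken. Members and lists were chosen with earlier results of these data known. Python 3.11.15, numpy 2.4.6 and pandas 2.3.3 were used, and window counts and fits were tested on simulated data.

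Sham and FT samples of the same replicate number were processed in parallel per the study's methods, and this number was therefore tried as a block. Deviations of same-numbered libraries from their group means had a correlation of 0.05 for tag percentiles over 22644 elements and 0.03 for windows. Positions are 1-based in Rn5. The reference tables at hand were of another build, so no gene name or sequence was taken from them.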

Additional observations from a re-analysis of the deposited data

How the results depend on the processing

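The FT to Sham ratios of peak number, covered length, median width and width at shared elements kept their direction under each alternative. Leaving out 1 library gave log2 ratios of 0.10 to 0.82 for peak number and 0.06 to 0.38 for width at shared elements, the lowest without Sham replicate 2 in both. With the replicate block, that is as the mean of the within-pair log2 ratios, they were 0.46 for peak number, 0.60 for covered length, 0.14 for median width and 0.22 for width at shared elements.

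The log2 excess of treatment-separating windows over the other pairings kept its sign under each other window size, overlap and list length tried, but turned where an FT library was left out. Over the 4 libraries left out in turn it ran from −0.21 to 1.49 on full lists, with −0.12 without FT replicate 1 and −0.21 without FT replicate 2, and from −0.56 to 1.66 on cut lists, with −0.46 and −0.56. The FT share of these windows on cut lists was 98.9% with 5 kb windows, 81.2% with at least 1 base covered, 61.9% with peak centres, 83.2% at a −log10 p of 6 or more, 76.2% with the 10000 best peaks, 62.8% at equal covered length and 95.9% on full lists. It ran from 57.3% without Sham replicate 2 to 86.9% over the libraries left out.

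The share of treatment-separating windows active elsewhere was 99.7% where 1 library of the other region sufficed, 87.2% where both Sham libraries were needed, 86.9% with the other regions' lists cut, 94.0% on full lists and 97.2% without Sham replicate 2. The share that adjoined a stretch of the other group was 46.9% on full lists and 41.1% without Sham replicate 2. Both values without Sham replicate 2 were added after seeing the data.

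The tag count fit, void through ties, called 1444 elements and 0 with median centring, percentile ranks, counts per base, cut lists or the replicate block, and from 2937 to 16652 with 1 library left out. The maxScore fit called 0 elements, 1 with median centring, 36 with the replicate block, and 0 to 4754 with 1 library left out, the highest without Sham replicate 1. The cause of these differences was not tested. With 2 libraries a group and no read depth, a difference between groups cannot be told apart from one in the efficiency of single libraries.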

Other observations

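Some LS elements overlapped no peak of any of the 90 libraries of other regions. On the full lists these were 102 of 3945 elements found in both FT libraries and neither Sham library (2.59%), and 5 of 256 found in both Sham libraries alone (1.95%). They were weak, and the strongest, chr4:230856502-230859260, had a −log10 p of 10.55 in FT replicate 1 and 8.4 in FT replicate 2, with a tag count of 4 in each. In windows of 1 kb on the cut lists, 13 FT-only and 0 Sham-only windows were occupied in no library of another region. The strongest of these, chr6:135701001-135702000, lay in peaks of 2200 bp in both FT libraries with a −log10 p of 33.0 and 37.3. However, none of the 13 windows lay in the 102 elements above. Their elements were thus overlapped by a Sham peak of LS or by a peak of another region. A window stays unoccupied where such a peak covers too little of it or lies beside it. The 13 windows are therefore not peaks shown to be found in LS alone.

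Between LS and the nucleus accumbens shell (NaCshell), the Sham-only windows of LS were occupied at 19.4% and 14.7% in the Sham libraries and at 11.5% and 10.3% in the FT libraries. In the locus coeruleus (LC) the same windows were at 43.3% and 33.2% in Sham and at 53.8% and 43.8% in FT. These values, on lists cut to the shortest of each region, were singled out after they were seen.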
